A study of Mus musculus with 20 samples.

Results

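The reprogramming factors Oct4, Sox2, Klf4 and c-Myc were followed through embryoid body (EB) differentiation of 4 mouse iPSC lines. Their genes Pou5f1, Sox2, Klf4 and Myc were chosen by name, not by level, though with earlier results of these data known. They are 4 of the 55573 gene identifiers measured. Oct4 is a POU-domain transcription factor that is kept on in the inner cell mass, in pluripotent stem cells and in germ cells. It binds DNA side by side with Sox2, an HMG-box factor that is also used by neural progenitors. Klf4, a zinc finger factor, takes part in the naive pluripotency network and is widely used in epithelia, and c-Myc, a basic helix-loop-helix factor, drives growth and ribosome production in many dividing cells. Together, when supplied from vectors, these factors return fibroblasts to a pluripotent state, in which vectors are usually shut down and the cell's own Pou5f1 and Sox2 are switched on. The counts were made per gene, so vector and endogenous transcripts of a factor are added together in every value below.

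Each line was sampled on days 0, 3, 5, 7 and 14 after EBs had been plated without LIF, with 1 library per line and day and 20 libraries in all. WT#1-4 and WT#20D-17 are labelled wild type, and Nox4-/- #5-8 and Nox4-/- #5-23 lack the NADPH oxidase gene Nox4. Per the study's methods, iPSCs were made from mouse embryonic fibroblasts (MEF) with pMXs-IRES-Puro retroviral vectors for the mouse factors, selected with puromycin, and picked as single colonies, so a line made in this way is 1 clone. How WT#20D-17 was made is not given in the sources used here. All lines were kept on MEF feeder cells before EB formation. In the study's methods EBs formed over 3 days in hanging drops without LIF before they were plated. The labels give day 14 in their titles but day 10 in their protocol text, and the titles were followed. WT#20D-17 is in the labels but is not among the lines that the study's text names, and it is kept apart below.

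The first 90 coding bases of the Pou5f1, Sox2 and Klf4 mRNAs are printed because the vectors express the same mouse factors, so that a read from such a stretch may come from a vector or from the gene's own locus. Capitals mark the start codon.
Pou5f1: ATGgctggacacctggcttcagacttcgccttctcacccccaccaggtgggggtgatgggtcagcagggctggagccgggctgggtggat
Sox2: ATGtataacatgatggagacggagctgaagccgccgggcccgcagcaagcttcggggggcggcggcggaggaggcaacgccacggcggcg
Klf4: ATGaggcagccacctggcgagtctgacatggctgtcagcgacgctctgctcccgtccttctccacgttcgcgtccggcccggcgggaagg
On GRCm38 these stretches lie at chr17:35506100-35506189 on the plus strand, chr3:34650416-34650505 on the plus strand, and chr4:55531666-55531871 on the minus strand with an intron between 2 exons. All are coding exons in the GENCODE M21 annotation. The annotated coding sequences hold 352 codons for Pou5f1, 319 for Sox2 and 483 for Klf4. They make up 77.8% of the Pou5f1 transcript, 46.7% of that of Sox2 and 47.9% of that of Klf4, and the rest is untranslated sequence. Gene-level counts do not keep where in the transcript a read fell, so the share of reads from untranslated sequence was not analysed here.

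Pou5f1 (ENSMUSG00000024406) spans chr17:35506018-35510772 on the plus strand and overlaps the antisense gene Gm19553. Its values had decimals, so that some of its reads had been divided between genes. Sox2 (ENSMUSG00000074637), at chr3:34650405-34652461 on the plus strand, lies inside the longer noncoding gene Sox2ot, which is read from the same strand. Gm19553 and Sox2ot had 3 counts or fewer in every library of the lines other than WT#20D-17, where they reached 17 and 108 counts. Klf4 (ENSMUSG00000003032), at chr4:55527143-55532466 on the minus strand, and Myc (ENSMUSG00000022346), at chr15:61985391-61990374 on the plus strand, overlap no other annotated gene.

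The Nanog promoter is shown because Oct4 and Sox2 are known to act together through neighbouring elements, of which the one before Nanog is a textbook case. Nanog is a homeobox factor of the core pluripotency network. The 250 bases before an annotated Nanog start (RefSeq, GRCm38.p6, chr6:122707239-122707488, plus strand) carry the letters TTTGCAT, the form bound by Oct4, 75 bases before the start, and ACAATG, a form bound by Sox2, 67 bases before it. They are in capitals.
Nanog: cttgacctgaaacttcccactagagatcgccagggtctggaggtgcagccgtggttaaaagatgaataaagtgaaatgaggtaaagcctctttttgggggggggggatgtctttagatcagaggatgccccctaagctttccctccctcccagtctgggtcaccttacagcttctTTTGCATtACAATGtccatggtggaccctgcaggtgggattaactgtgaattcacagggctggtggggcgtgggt
Of 32851 RefSeq promoter windows of this length, 4.12% held TTTGCAT or its reverse complement ATGCAAA, 10.7% held ACAATG or CATTGT, and 0.642% held both. The window before Sox2 held ATGCAAA, that before Klf4 held neither, and of those of Pou5f1 1 held ACAATG and the other held neither. These matches only describe the letters.

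Library totals lay between 20294968 and 27708023 expected counts. The 4 iPSC lines did not look alike on day 0. The summed level of 5 markers of pluripotent cells (Nanog, Zfp42, Esrrb, Dppa5a and Tdgf1) was 2116 CPM in WT#20D-17 but 1.14 CPM in WT#1-4, 3.11 CPM in Nox4-/- #5-8 and 0.409 CPM in Nox4-/- #5-23. CPM are library-scaled counts, with TMM factors. Over all 5 days the same sum stayed between 1.14 and 12.0 CPM in WT#1-4, between 3.11 and 42.8 CPM in Nox4-/- #5-8 and between 0.409 and 7.03 CPM in Nox4-/- #5-23, and it fell to 58.5 CPM on day 14 in WT#20D-17. Zfp42 was at 0 counts in every library of those 3 lines, and 2 of the 5 markers passed 3 counts in each of them on day 0. For iPSCs of those lines the study reported alkaline phosphatase activity and staining for Oct4, Sox2 and SSEA-1. It also showed the 4 factors in iPSCs of both genotypes by immunoblot. As days are counted here, day 0 follows EB formation without LIF. These markers do not test the undifferentiated cells, and go against the label of iPSC only for the day 0 samples of those 3 lines. Other genes of the pluripotency network were present there on day 0, with Fgf4 at 135 to 174 CPM, Nr0b1 at 45.4 to 147 CPM, Sall4 at 15.1 to 43.9 CPM and Fbxo15 at 15.5 to 67.2 CPM, and were named after their values were seen. Nox4 had between 3 and 22 counts in WT#1-4, between 56 and 203 in WT#20D-17 and at most 2 in a Nox4-/- library.

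Pou5f1 had the most counts of the factors in every library but that of WT#20D-17 on day 14, and its level told WT#20D-17 from the other lines. In WT#1-4 it was 5760.05, 3266, 3423, 2861 and 1278 CPM on days 0, 3, 5, 7 and 14. The levels in Nox4-/- #5-8 were 3081, 2891, 3038, 2946 and 1873 CPM, and those in Nox4-/- #5-23 were 4394, 3475.5, 3423, 3704 and 3677 CPM. The WT#20D-17 levels were 1136, 386, 114, 81.5 and 21.3 CPM, below every value of the other lines. WT#1-4 was between 5.07-fold and 60.1-fold higher than WT#20D-17 on the same day. The Nox4-/- lines did not overlap, and Nox4-/- #5-23 was the higher on all 5 days, by 1.13-fold to 1.96-fold. From day 0 to day 14 the level fell 53.4-fold in WT#20D-17, 4.51-fold in WT#1-4, 1.65-fold in Nox4-/- #5-8 and 1.19-fold in Nox4-/- #5-23, with 1 library at each end. Counting error was small at this depth: the lowest value, 405 counts in WT#20D-17 on day 14, had a 95% Wilson interval of 19.3 to 23.4 CPM, which covers counting error only. In RNA from whole cultures, fewer cells with a transcript and less of it per cell cannot be told apart.

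Sox2 was the least abundant of the factors in every library of WT#1-4 and of the Nox4-/- lines. It was the only one that told WT#1-4 from the Nox4-/- lines. In WT#1-4 it was 33.6, 16.8, 15.4, 4.32 and 1.04 CPM on days 0, 3, 5, 7 and 14, and the last value rests on 21 counts (95% Wilson interval 0.681 to 1.59 CPM). The levels in Nox4-/- #5-8 were 154, 99.9, 83.3, 88.7 and 97.4 CPM, and those in Nox4-/- #5-23 were 202, 172, 156, 186 and 137 CPM. Neither line overlapped WT#1-4. Nox4-/- #5-8 was 4.59-fold to 93.6-fold and Nox4-/- #5-23 6.01-fold to 132-fold higher than WT#1-4 on the same day. In WT#20D-17 Sox2 was 195 CPM on day 0, within the range of Nox4-/- #5-23, and then 54.95, 31.7, 16.0 and 6.98 CPM. The wild type lines were thus far apart on day 0, and both fell, 32.3-fold in WT#1-4 and 27.99-fold in WT#20D-17, to levels below every Nox4-/- library on day 14. The falls in the Nox4-/- lines were 1.58-fold and 1.47-fold.

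Klf4 was the only factor that was higher on day 14 than on day 0 in any line. In WT#1-4 it was 807, 487, 470.3, 490.2 and 356 CPM on days 0, 3, 5, 7 and 14. The levels in Nox4-/- #5-8 were 648, 664, 702, 720.2 and 460.1 CPM, and those in Nox4-/- #5-23 were 828, 678, 661, 817 and 792 CPM. In WT#20D-17 it started at 26.4 CPM and went on at 17.8, 39.3, 47.5 and 180.1 CPM, which is 6.82-fold more on day 14 than on day 0. Even this highest value was below every value of the other lines. In WT#20D-17 the epithelial markers Epcam, Cdh1, Krt8, Krt18 and Krt14 summed to 713 CPM on day 0 and 2406 CPM on day 14, against 24.8 to 442 CPM in the other lines, and 8 fibroblast markers rose from 23.8 to 3004 CPM. Their part in the Klf4 values was not tested.

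Myc was lower in WT#20D-17 than in the other lines on every day, as seen in the plot of levels by day. In WT#1-4 it was 1337, 531, 549.9, 557 and 401 CPM on days 0, 3, 5, 7 and 14. The levels in Nox4-/- #5-8 were 526, 489.6, 472, 535 and 272 CPM, and those in Nox4-/- #5-23 were 682, 543, 390.2, 487 and 407 CPM. These 3 lines overlapped one another. In WT#20D-17 Myc was 50.9, 34.0, 36.8, 25.9 and 16.4 CPM, at least 10.3-fold below Nox4-/- #5-8 and at least 14.9-fold below WT#1-4 on the same day. The Myc level on day 14 was below that on day 0 in all 4 lines, by 1.68-fold to 3.34-fold.

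**Figure D1:**
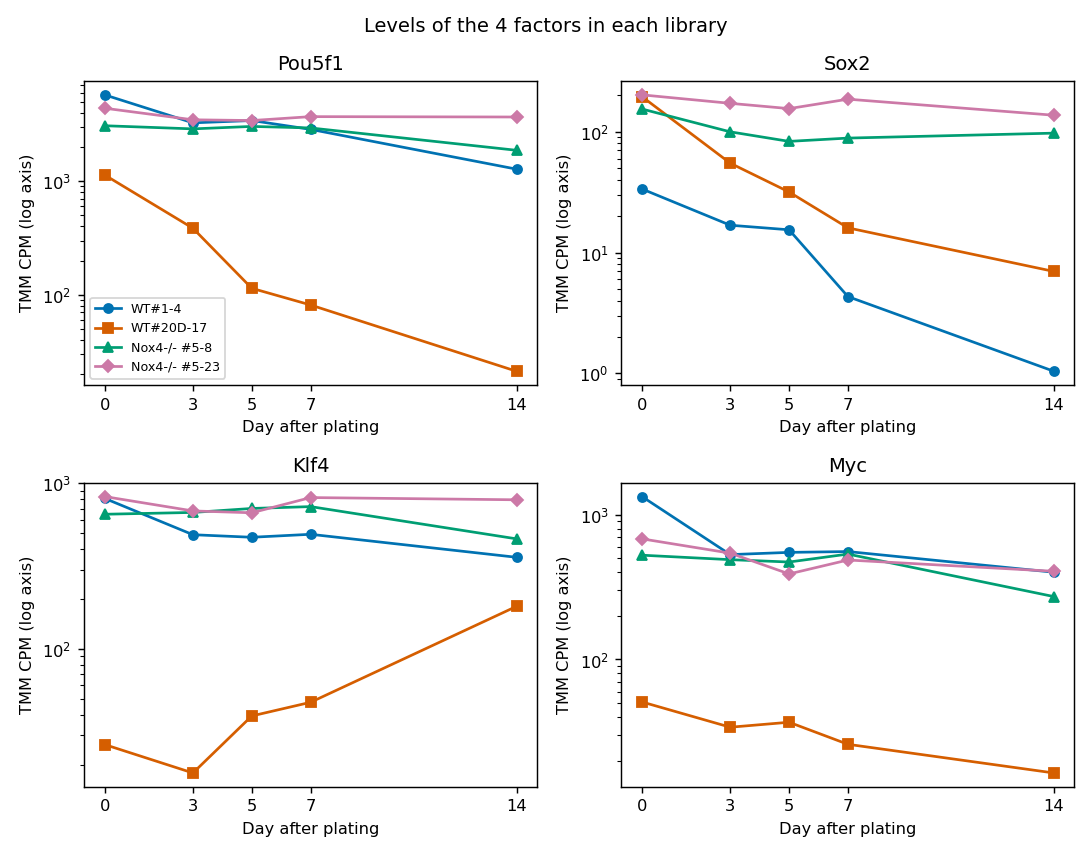
TMM-scaled CPM of Pou5f1, Sox2, Klf4 and Myc (log axis) against the day after plating, with 1 point per library and a line joining the 5 libraries of each iPSC line. WT#20D-17 lies below all other lines for Pou5f1, Klf4 and Myc, while for Sox2 it starts at 195 CPM beside the Nox4-/- lines and ends at 6.98 CPM, and WT#1-4 falls from 33.6 to 1.04 CPM.

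Per kilobase of annotated exon, which allows levels of different genes to be set side by side, Pou5f1 led in every library but 1. It stood at 2562 CPM per kb in WT#1-4 on day 0, the 8th highest of the 22141 genes with a count there, and between ranks 8 and 72 in all 15 libraries of the lines other than WT#20D-17. Klf4 lay between 117 and 272 CPM per kb and Myc between 100.2 and 492 CPM per kb in those libraries. Sox2 lay between 40.5 and 98.3 CPM per kb in the Nox4-/- lines and between 0.506 and 16.3 CPM per kb in WT#1-4. It ranked last of the factors in all of these libraries. In WT#20D-17 Pou5f1 fell from 505 to 9.46 CPM per kb and from rank 101 to rank 5272, and on day 14 Klf4, at 59.1 CPM per kb, was the highest of the factors. The factors together took 0.800% of all counts in WT#1-4 on day 0 and 0.0173% in WT#20D-17 on day 7, the extremes of the 20 libraries. These lengths are those of the gene models, and transcripts from a vector would have other lengths.

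The comparison of genotypes asked whether the factors differ between wild type and Nox4-/- cells. In the pooled test of the study's design, where days of a line stand in as replicates (edgeR's exact test, WT#1-4 against both Nox4-/- lines, FDR under 0.01), 1 of the 4 genes passed, against 5.62% of 33860 genes tested, 1.65% higher and 3.97% lower in Nox4-/-. Sox2 was higher in Nox4-/- by 3.27 on the log2 scale (FDR 5.74e-07). The log2 differences of the others were -0.03 for Pou5f1 (FDR 1), 0.42 for Klf4 (FDR 0.258) and -0.49 for Myc (FDR 0.313). The result depends on which wild type line is used. Against WT#20D-17 instead, the log2 differences were 3.22 for Pou5f1 (FDR 8.15e-06), 1.17 for Sox2 (FDR 0.0874), 3.49 for Klf4 (FDR 1.71e-12) and 3.87 for Myc (FDR 2.35e-35), and with both wild type lines no factor passed, Sox2 standing at 1.87 (FDR 0.01003).

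A genotype effect has 2 lines on each side, and with the counts of each line summed over the days no factor passed, in a test in which edgeR's quasi-likelihood method called 0% of 20229 genes. The log2 differences, Nox4-/- minus WT, were 0.81 ± 1.10 (SE) for Pou5f1, 1.82 ± 0.81 for Sox2, 1.27 ± 1.09 for Klf4 and 0.43 ± 1.38 for Myc, with FDR values of 0.818, 0.607, 0.730 and 0.929. At an unadjusted p under 0.05 this test listed 1628 genes and none of the factors. DESeq2 called 730 genes and edgeR's exact test 124 genes from the same sums, and neither called a factor. Without WT#20D-17 the differences of Pou5f1 and Myc turned to -0.04 and -0.49.

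Between the lines themselves the differences were large. With the days as matched blocks (edgeR's quasi-likelihood test, all 20 libraries), all 4 factors differed between lines, against 50.8% of 17187 genes, with FDR values of 1.39e-04 for Pou5f1, 7.30e-05 for Sox2, 2.86e-05 for Klf4 and 4.48e-10 for Myc. Without WT#20D-17 the values were 0.179, 0.0360 and 0.111 for Pou5f1, Klf4 and Myc, and without WT#1-4 that of Sox2 was 0.0124, so that these calls rest on those lines.

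The pairs of lines show where the factors differed. From WT#1-4 to WT#20D-17, where 39.0% of genes passed, 19.6% higher and 19.4% lower, Pou5f1 fell by 3.83 ± 0.60 (SE), Klf4 fell by 3.36 ± 0.49 and Myc fell by 4.37 ± 0.21 on the log2 scale, while Sox2 rose by 1.84 ± 0.54 (FDR 0.00931). Against WT#1-4, where 8.36% of genes passed for Nox4-/- #5-8 and 11.8% for Nox4-/- #5-23, Sox2 alone of the factors passed in both, at 3.41 ± 0.58 and 4.19 ± 0.60. There the 95% intervals of the other factors reached from -1.19 to 1.55 for Pou5f1, from -0.60 to 1.40 for Klf4 and from -0.88 to 0.07 for Myc over both lines.

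Against WT#20D-17, where 43.5% of genes passed for Nox4-/- #5-8 and 44.4% for Nox4-/- #5-23, Pou5f1 was higher by 3.75 ± 0.61 and 4.27 ± 0.62, Klf4 by 3.66 ± 0.49 and 3.87 ± 0.49 and Myc by 3.88 ± 0.21 and 4.04 ± 0.21, and all passed. Sox2 passed for Nox4-/- #5-23 only, at 2.34 ± 0.57 against 1.57 ± 0.56 (FDR 0.0243) for Nox4-/- #5-8. These comparisons share WT#20D-17. Between the Nox4-/- lines 3.82% of genes passed and no factor did, with 95% intervals of -0.59 to 1.63 for Pou5f1, -0.32 to 1.87 for Sox2, -0.69 to 1.11 for Klf4 and -0.23 to 0.55 for Myc.

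**Figure D2:**
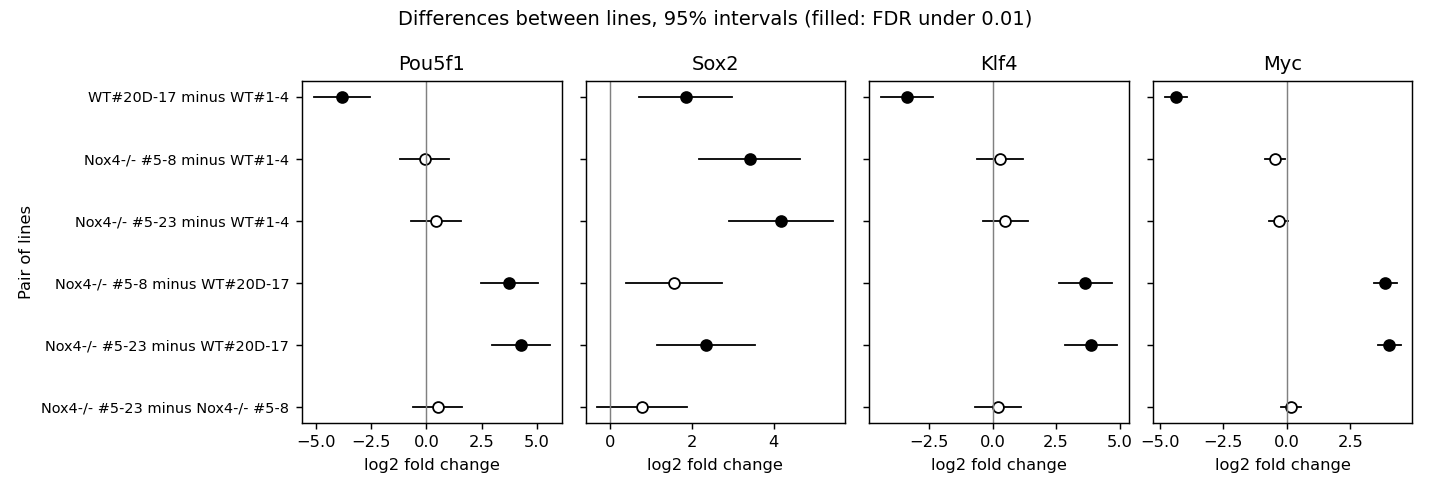
Log2 fold changes of each factor between each pair of lines with their 95% intervals, from the fit of line and day over 20 libraries, with filled points at an FDR under 0.01. Pou5f1, Klf4 and Myc differ wherever WT#20D-17 is 1 of the pair, and Sox2 differs wherever WT#1-4 is and between Nox4-/- #5-23 and WT#20D-17.

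The order of the lines by median level over the days was Nox4-/- #5-23 (3677 CPM), WT#1-4 (3266 CPM), Nox4-/- #5-8 (2946 CPM) and WT#20D-17 (114 CPM) for Pou5f1. For Sox2 it was Nox4-/- #5-23 (172 CPM), Nox4-/- #5-8 (97.4 CPM), WT#20D-17 (31.7 CPM) and WT#1-4 (15.4 CPM). For Klf4 it was Nox4-/- #5-23 (792 CPM), Nox4-/- #5-8 (664 CPM), WT#1-4 (487 CPM) and WT#20D-17 (39.3 CPM). For Myc it was WT#1-4 (549.9 CPM), Nox4-/- #5-8 (489.6 CPM), Nox4-/- #5-23 (487 CPM) and WT#20D-17 (34.0 CPM). Among neighbours in these orders only the step to WT#20D-17 for Pou5f1, Klf4 and Myc, and that from WT#20D-17 to WT#1-4 for Sox2, passed the test.

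The time course asked whether the factors are lost as EBs differentiate. Over the 4 lines, with line as a block, Myc differed between days (FDR 0.00267 from edgeR's quasi-likelihood test) and Sox2 (0.0329), Pou5f1 (0.101) and Klf4 (0.620) did not pass, against 18.6% of genes. Without any 1 of the lines the FDR of Myc was between 0.0135 and 0.0443. No factor passed on day 3, 5 or 7 against day 0, where 0.175%, 2.63% and 12.3% of genes passed. On day 14, where 29.7% passed, 15.3% higher and 14.5% lower, Myc fell by 1.27 ± 0.21 (FDR 1.75e-04) and Sox2 fell by 2.48 ± 0.65 (FDR 0.00554) on the log2 scale. Pou5f1 stood at -2.16 ± 0.65 (FDR 0.0134) and Klf4 at 0.51 ± 0.51 (FDR 0.435). Without each line in turn, the Myc change on day 14 was between -1.47 and -1.09 and passed each time. The Sox2 call was lost without WT#1-4 (-1.99, FDR 0.0394) or without WT#20D-17 (-1.54, FDR 0.0511), while without WT#20D-17 Pou5f1 passed at -0.98 (FDR 0.00976).

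Within lines, the change from day 0 to day 14 of log2(CPM + 1) for Pou5f1 was -5.67 in WT#20D-17, -2.17 in WT#1-4, -0.72 in Nox4-/- #5-8 and -0.26 in Nox4-/- #5-23. For Sox2 it was -4.62, -4.08, -0.66 and -0.56 in the same order. For Klf4 it was 2.72 in WT#20D-17 against -1.18, -0.49 and -0.06 in the others. For Myc it was -1.57, -1.74, -0.95 and -0.74. Each of these values rests on 2 libraries. In size, every factor changed more in both wild type lines than in both Nox4-/- lines, with Klf4 moving in opposite directions in the wild type lines. The share of all genes with this order was not counted. The difference in course between the genotypes was tested as an interaction of genotype and day, in which 0.0116% of genes passed and no factor did. The FDR was 0.0444 for Sox2 (unadjusted p 1.03e-05), 0.587 for Pou5f1, 0.912 for Klf4 and 0.799 for Myc by edgeR's quasi-likelihood test. DESeq2's likelihood ratio test of the same terms gave 3.37e-13 for Sox2. Without WT#1-4, which leaves WT#20D-17 as the only wild type line, Pou5f1, Sox2 and Klf4 passed this test, at 0.00218, 0.00255 and 0.00615. Without WT#20D-17 none passed (Sox2 at 0.0595), and the FDR of all 4 was 1 without either Nox4-/- line or without the line term. A test of linear day trends between lines, added after the values had been seen, called 13.2% of genes and 3 of the 4 factors, at 2.69e-04 for Pou5f1, 6.16e-04 for Sox2 and 2.76e-04 for Klf4. Without WT#20D-17 the Klf4 value was 0.101, and Pou5f1 and Sox2 passed without any 1 line.

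**Figure D3:**
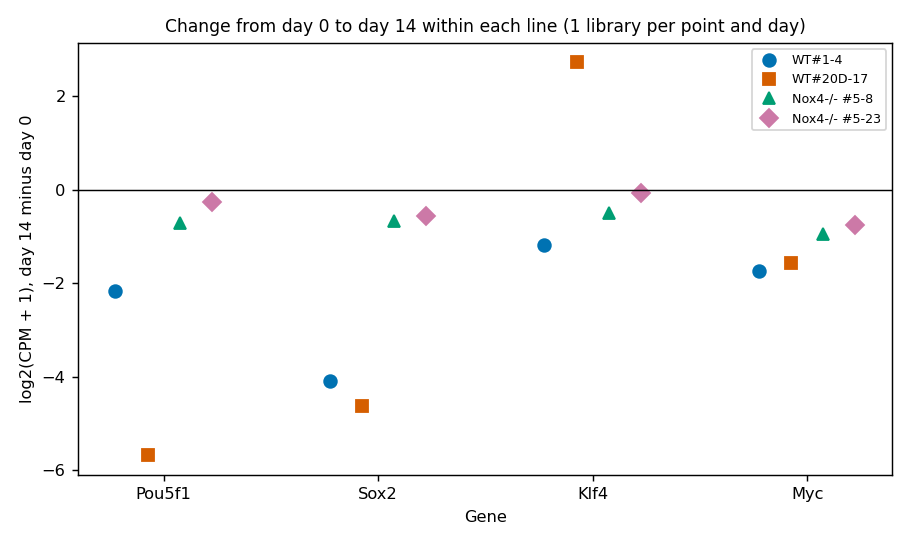
Difference in log2(CPM + 1) between day 14 and day 0 for each factor within each line, with 1 library at each end of a point. Pou5f1 and Sox2 change by less than 1 in the Nox4-/- lines and by more than 2 in the wild type lines, and Klf4 in WT#20D-17 is the only value above 0.

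Set against the markers of pluripotent cells, the factors behaved in different ways in WT#20D-17 and in the other lines. As the marker sum in WT#20D-17 fell from 2116 to 58.5 CPM, Pou5f1 fell from 1136 to 21.3 CPM and Sox2 from 195 to 6.98 CPM, while Klf4 went from 26.4 to 180.1 CPM. In the other lines the lowest values were 1278 CPM for Pou5f1, 356 CPM for Klf4 and 272 CPM for Myc, in libraries whose marker sum never passed 42.8 CPM. The germ cell markers Dppa3, Ddx4, Dazl, Prdm1 and Nanos3, of a cell type that also uses Pou5f1, summed to 0.359 to 12.5 CPM in those libraries. The 9 neural markers, of cells that also use Sox2, summed to 321 to 543 CPM in WT#1-4, 157 to 188 CPM in Nox4-/- #5-8 and 154 to 276 CPM in Nox4-/- #5-23. In WT#1-4 most of this sum was Sox1 and Map2. In the pooled comparison Zic1 and Pax3 were higher in Nox4-/-, Map2 was lower and 6 did not pass. Of all genes 1.65% were higher and 3.97% lower in Nox4-/-. The median log2 difference of the 9 was 0.85 against 0 over all genes. The endoderm markers Afp, Sox17, Foxa2, Gata4, Gata6 and Ttr summed to at most 4.55 CPM in those lines and to 129 to 1738 CPM in WT#20D-17. The part of these cell types in the factor levels was not tested.

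**Figure D4:**
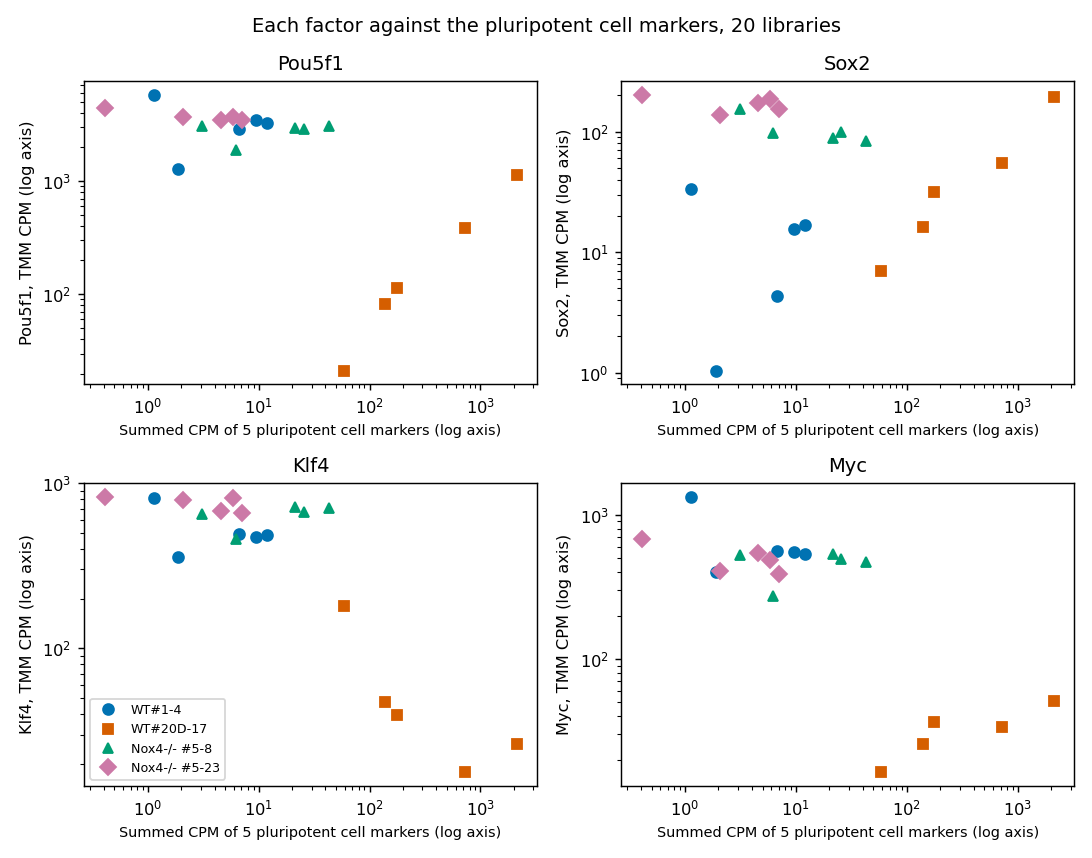
TMM CPM of each factor against the summed CPM of Nanog, Zfp42, Esrrb, Dppa5a and Tdgf1, both on log axes, with 1 point per library and 20 libraries. In WT#20D-17 Pou5f1 and Sox2 are higher in libraries with more marker RNA, and the other lines hold their highest Pou5f1 levels, up to 5760.05 CPM, at marker sums under 42.8 CPM.

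Over the 20 libraries the factors varied together to different degrees, as a description of points that share lines and days. Pearson's r of log2(CPM + 1) was 0.931 for Myc with Pou5f1, 0.876 for Klf4 with Myc and 0.715 for Klf4 with Pou5f1, and 0.170 to 0.409 for Sox2 with the others. In the 15 libraries without WT#20D-17 these values were 0.712, 0.427 and 0.787, and Sox2 had 0.786 with Klf4, 0.490 with Pou5f1 and -0.07 with Myc. Of 16309 genes averaging 10 counts or more, the 5 most like Pou5f1 were Fgf4 (r = 0.986), Fam185a, Def6, Ccnd1 and Foxp1, and the 5 most like Myc were Gpd2 (r = 0.985), Fyn, Syne2, D130017N08Rik and Dclk1. Those most like Klf4 were Ano1 (r = 0.973), Hp1bp3, Ncam1, Ddr2 and Baiap2. Those most like Sox2 were Cnpy1 (r = 0.915), Kctd5, Gtf2h3, Zfp65 and Slfn9. These lists use all 20 libraries, in which Pou5f1, Klf4 and Myc were lowest in WT#20D-17, and were not made again without that line.

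Genes known to be controlled through joint Oct4 and Sox2 elements differed in their order of lines. Of 7 such genes (Nanog, Fgf4, Utf1, Lefty1, Spp1, Fbxo15 and Zfp42), 5 were higher and 2 lower in WT#20D-17 than in WT#1-4, where 39.0% of all genes passed. Zfp42, at 0 elsewhere, and Lefty1, at 0.671 CPM or less elsewhere, entered the test only through WT#20D-17. Nanog, whose promoter is printed above, had at most 27 counts in any library outside WT#20D-17, and there fell from 383 to 8.397 CPM. Fgf4 and Fbxo15 were lower in WT#20D-17, as Pou5f1 was. Fgf4, a growth factor secreted by pluripotent cells, was 146 CPM in WT#1-4, 135 CPM in Nox4-/- #5-8, 174 CPM in Nox4-/- #5-23 and 93.4 CPM in WT#20D-17 on day 0, and 58.4, 114, 168 and 2.26 CPM on day 14. Fbxo15, an F-box gene used as a pluripotency reporter, was 20.3 CPM in WT#20D-17 on day 0 and 15.5 to 67.2 CPM in the other lines, and was higher on day 14 by 1.65 ± 0.46 (FDR 0.00894). Spp1, which encodes the secreted protein osteopontin, fell by 3.28 ± 0.60 (FDR 4.10e-04). Fbxo15 and Spp1 were the only genes of the list that passed on day 14. In the pooled comparison of genotypes 1 of the 7 passed, against 5.62% of all genes. This was Utf1, lower in Nox4-/-, at 5.24 to 8.35 CPM in WT#1-4 and at most 1 count in any Nox4-/- library.

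Of 18 genes of the pluripotency network, which include Nanog, Zfp42 and Fbxo15 of the list above, 17 could be tested between the wild type lines. Of these, 15 were higher and 2, Nr0b1 and Fbxo15, lower in WT#20D-17, against 19.6% and 19.4% of all genes. Zfp42, Prdm14 and Dppa4 had 3 counts or fewer in every library of the other lines. Esrrb had at most 5 counts there. Dppa2 and Tcl1, with at most 33 and 23, were too low in most of those libraries to pass the filter. All of these entered the test only through WT#20D-17, so that the count is partly set by the filter. In the pooled comparison of genotypes 2 were higher, 2 lower and 14 did not pass, against 1.65% higher and 3.97% lower of all genes. On day 14 2 were higher and 6 lower of the 17, against 15.3% and 14.5% of all genes. Lin28a, which encodes an RNA-binding protein that blocks let-7 processing, was at 227 to 613 CPM in WT#20D-17 and at 0 to 5.01 CPM elsewhere. Nr0b1, the nuclear receptor Dax1, was at 45.4, 147 and 99.6 CPM in WT#1-4, Nox4-/- #5-8 and Nox4-/- #5-23 on day 0 and at 0.347, 14.1 and 3.86 CPM on day 14. Over the 4 lines it fell by 4.73 ± 0.78 on the log2 scale (FDR 1.80e-04). Dppa2, a gene of early embryonic cells, had the larger fitted change of -5.02 ± 0.81 (FDR 1.49e-04), but was at 1.38 CPM or less in every library outside WT#20D-17, where it went from 65.9 to 1.36 CPM.

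Most targets of c-Myc were lower on day 14, and few differed between the wild type lines. Of 15 genes known as Myc targets, 13 were lower and 2 higher on day 14, against 14.5% and 15.3% of all genes, with a median log2 change of -1.63 against 0.04 over all genes. Between WT#20D-17 and WT#1-4, 13 of the 15 did not pass and 2, Srm and Ccnd2, were lower. Of all genes 39.0% passed there and 19.4% were lower in WT#20D-17. The median of the 15 was -0.22 against -0.01 over all genes. In the pooled comparison of genotypes by edgeR's exact test, the lowest FDR among the 15 was 0.598, for the cell cycle kinase gene Cdk4. Npm1, which encodes the nucleolar protein nucleophosmin, was at 2585, 2768, 2765 and 2656 CPM on day 0 in WT#1-4, WT#20D-17, Nox4-/- #5-8 and Nox4-/- #5-23, and at 1188, 1028, 1292 and 1045 CPM on day 14. Cad, the enzyme that starts pyrimidine synthesis, fell by 2.48 ± 0.24 on the log2 scale (FDR 2.52e-06). Ccnd2, the cell cycle gene for cyclin D2, went against the list at 3.88 ± 0.41 (FDR 4.45e-06), as did Ldha, the lactate dehydrogenase A gene, at 0.94 ± 0.22 (FDR 0.00298).

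Myc works as a dimer with Max, and its paralogs and the Mxd antagonists share that partner. Of 11 genes of this network other than Myc, 3 were called on day 14, against 29.7% of all genes, and all 3 were higher (Mxd1, Mxi1 and Mxd4, which encode antagonists of Myc). Mxd4 rose by 1.71 ± 0.28 (FDR 1.70e-04) and Mxd1 by 1.43 ± 0.26 (FDR 3.56e-04). Max itself stood at -0.07 ± 0.15. The paralog Mycn was at 56.6 to 102 CPM in WT#20D-17, the line with the least Myc, and at 1.04 to 11.6 CPM in the other lines, a log2 difference of 4.24 ± 0.39 between the wild type lines (FDR 1.62e-07). Mycl was higher there as well, by 1.57 ± 0.46 (FDR 0.00964).

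Klf2 and Klf5, which overlap with Klf4 in function in pluripotent cells, were higher in WT#20D-17 than in WT#1-4, by 3.40 ± 0.56 and 3.22 ± 0.35 on the log2 scale, where Klf4 was lower. Klf2 was at 24.1 CPM in WT#20D-17 on day 0 and at 1.67 CPM or less in every library of the other lines. Of the 13 KLF genes other than Klf4 that were tested there, 3 were higher and 3 lower, against 19.6% and 19.4% of all genes. Klf3 had the highest mean level of them, at 195 to 345 CPM in the lines other than WT#20D-17 and 36.8 to 65.9 CPM there. On day 14, 3 were higher and 1 lower, against 15.3% and 14.5%, and Klf7 and Klf6 rose by 1.88 ± 0.42 and 1.81 ± 0.48. In the pooled comparison 3 of 16 were lower in Nox4-/-, against 3.97% of all genes.

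Among the SOX genes, Sox1 and Sox3 belong with Sox2 to the SOXB1 group. Sox1 was at 43.0 to 138 CPM in every library of WT#1-4 and the Nox4-/- lines and at 0.210 to 11.3 CPM in WT#20D-17, while Sox3 was at 1.15 to 13.5 CPM in WT#20D-17 and at 0.612 CPM or less elsewhere. Of the 15 SOX genes other than Sox2 that were tested, 7 were higher and 2 lower in WT#20D-17 than in WT#1-4. Of all genes 19.6% were higher and 19.4% lower. Sox3, Sox7, Sox17 and Sox21, all among those higher, were at 0.998 CPM or less in every library of the other lines. Sox9, also among those higher, was at 0.755 CPM or less there. All of these needed WT#20D-17 to pass the filter, so that this count is partly set by it. On day 14 1 was higher and 3 lower, against 15.3% and 14.5%. Sox11, a factor of neural progenitors, had the highest mean level, at 40.2 to 182 CPM in the lines other than WT#20D-17 and 13.6 to 63.1 CPM there. The gene called higher on day 14 was the endoderm gene Sox17, and that call is WT#20D-17 alone: it went from 8.32 to 126 CPM there, was at 0 in both Nox4-/- lines and reached 14 counts in WT#1-4. In the pooled comparison, in which Sox2 was higher in Nox4-/-, 1 of 17 other SOX genes passed and was lower, against 5.62% of all genes.

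The closest relative of Pou5f1, Pou5f2, had at most 6 counts in any library. Of the 8 POU genes other than Pou5f1 that were tested, 1 was higher and 2 lower in WT#20D-17 than in WT#1-4, against 19.6% and 19.4% of all genes. Pou2f1, the widely used factor Oct1, had the highest mean level, at 29.7 to 136 CPM over all libraries. On day 14 1 was higher and 2 lower, against 15.3% and 14.5%, and Pou3f1, a factor of the epiblast and nervous system also known as Oct6, fell by 3.92 ± 0.58 on the log2 scale (FDR 6.88e-05). Of 14 POU genes in the pooled comparison, 2 were lower in Nox4-/-, against 3.97%.

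Because the vectors were retroviral, genes known for silencing retroviruses in stem cells were examined. Of 16, 4 were higher and 1 lower in WT#20D-17 than in WT#1-4, a share below the 39.0% of all genes that passed. Dnmt3b, a de novo DNA methyltransferase, was at 725 CPM in WT#20D-17 on day 0 and at 12.2 to 14.9 CPM in the other lines, a log2 difference of 4.89 ± 0.27 between the wild type lines (FDR 7.43e-10). Its cofactor gene Dnmt3l was at 136 CPM in WT#20D-17 on day 0 and had 3 counts or fewer in every library of the other lines, so that it entered the test only through WT#20D-17. Trim28, a corepressor that is recruited to retroviral sequence, was at 967 CPM on day 0 in WT#20D-17 and at 551, 479 and 659 CPM in WT#1-4, Nox4-/- #5-8 and Nox4-/- #5-23, with a difference of 0.68 ± 0.16 between the wild type lines (FDR 0.00169). Zfp809, which encodes the zinc finger protein that brings Trim28 to retroviral sequence, was higher by 0.75 ± 0.19 (FDR 0.00403). On day 14 10 of the 16 passed and all were lower, against 14.5% of all genes, with a median log2 change of -1.26 against 0.04 over all genes. In the pooled comparison 1 of the 16 passed and was lower in Nox4-/-, against 3.97%. Whether these genes bear on the levels of the factors was not tested.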

How the data were processed

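RNA of 20 libraries was sequenced by the authors with a stranded mRNA kit, and reads were aligned to the mouse genome (mm10) with STAR 2.6.0c and quantified with RSEM 1.3.1. The strand setting of RSEM is not given in the sources used here. The deposited values are expected counts per gene, which were rounded to whole numbers for the tests. Levels are CPM scaled by TMM (edgeR 4.0.16, R 4.3.3), and log2 levels used a pseudocount of 1 CPM. Genes were called at an FDR (Benjamini-Hochberg) under 0.01. The pooled comparison used edgeR's exact test as in the study's design. Lines and days were fitted together by edgeR's quasi-likelihood test, and counts were summed per line for the test with lines as units. The standard errors (SE) were derived from these tests, as the absolute log2 difference divided by the square root of the F statistic. The 95% intervals of log2 differences were built from these SE. DESeq2 1.42.0 was an alternative. These tests were tested on simulated data, in which every library was drawn independently around the same mean apart from the change put in. Such data hold no other spread between lines and no link between days of a line, so they do not test the effect of either. The days of 1 line are not independent samples, so p-values over them measure only the spread between these libraries. The factors and gene lists were chosen with earlier results of these data known. The text names all 4 factors, the genes most like them by correlation, their closest paralogs and, per list, at most 4 examples from the genes with the highest mean level and the largest called change on day 14. Other genes of a list were named after their values were seen. Gene models were those of GENCODE M21 (GRCm38), which held 55480 of the 55573 identifiers. The coding start of Myc is not reported here.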

Additional observations from a re-analysis of the deposited data

Results flagged for a closer look

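The course over the days differed between the lines for 3 of the factors. A test of whether the linear trend over days is the same in the 4 lines, which was added after the values had been seen, gave an FDR by edgeR's quasi-likelihood test of 0.0002694 for Pou5f1, 0.0006155 for Sox2 and 0.0002763 for Klf4. Myc did not pass (0.407). Without each line in turn, Pou5f1 stayed between 0.00140 and 0.00927 and Sox2 between 0.00143 and 0.00743, while Klf4 was at 0.101 without WT#20D-17. The trend test compares lines, each with 1 library per day, and the interaction of genotype and day called none of the 4.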

How the results depend on the processing

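When WT#20D-17 stood for the wild type instead of WT#1-4, the pooled log2 differences were 3.22 for Pou5f1 and 3.87 for Myc, both turned in direction, 1.17 for Sox2 and 3.49 for Klf4, and with both wild type lines that of Sox2 was 1.87. The cause was not tested. Without each line in turn, the line FDR ranged from 4.50e-04 to 0.179 for Pou5f1, 2.16e-04 to 0.0124 for Sox2, 7.92e-05 to 0.0360 for Klf4 and 3.74e-08 to 0.111 for Myc, the upper values being without WT#20D-17, or without WT#1-4 for Sox2. The day 14 log2 change of Pou5f1 passed without an expression filter (-2.16) and by DESeq2 (-2.11), and ranged from -2.94 to -0.98 without each line, while Sox2 ranged from -3.28 to -1.54. Without the line term, Sox2 (-1.28) and Myc (-1.23) did not pass. DESeq2 gave a day course FDR of 0.00291 for Sox2, and that of Myc ranged from 0.0135 to 0.0443 without each line. The genotype by day FDR of Sox2 was 3.37e-13 by DESeq2. Without each line it ranged from 0.00218 to 1 for Pou5f1, 0.00255 to 1 for Sox2 and 0.00615 to 1 for Klf4, and the added linear trend gave 0.0002694, 0.0006155 and 0.0002763. With lines as units, no alternative moved a factor past the threshold, and leaving out each line gave log2 differences of -0.04 to 3.22 for Pou5f1, 1.17 to 3.24 for Sox2, 0.42 to 3.68 for Klf4 and -0.49 to 3.92 for Myc. Each line had 1 library per day, so that a genotype effect rests on 2 lines a side.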
